A study of Mus musculus with 10 samples.

Results

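The transcripts examined here were those of 9 genes at the core of PI3K, AKT and mTOR signaling, taken by symbol from the 55359 genes of the table and all 9 among the 13548 genes abundant enough to be tested. *Pik3ca* and *Pik3r1* encode a catalytic and a regulatory subunit of class I PI3K, *Akt1* and *Akt2* encode AKT kinases, *Tsc1* and *Tsc2* encode the partners of the tuberous sclerosis complex, *Mtor* encodes the mTOR kinase, and *Rptor* and *Rictor* encode the subunits that define mTORC1 and mTORC2. The cells were C2C12, a mouse myoblast line that fuses into myotubes when serum is reduced. Per the labels they were grown in medium with 20% FBS, transfected with 100 nM of siRNA and kept in differentiation medium (high glucose, 2% horse serum) until day 4, and the groups differed in the siRNA, a control siRNA (si-Control, 5 libraries) or one against *Fndc1*, a fibronectin type III domain gene (si-*Fndc1*, 5 libraries). The description of the series instead gives a shorter time, counted from transfection. The study asked whether FNDC1, as a muscle-derived secreted protein acting through an integrin, reaches this pathway. The comparison below covers mRNA only, and the mRNA of these kinases does not show their phosphorylation, by which they are switched.

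In this pathway, class I PI3K at the membrane makes a lipid that brings AKT to the kinases that activate it. AKT then inhibits the TSC1-TSC2 complex, which frees the small GTPase RHEB to activate mTORC1, the complex that raises protein synthesis and restrains autophagy. mTORC2 in turn phosphorylates AKT. In skeletal muscle the pathway is known for its part in myoblast differentiation and in fiber growth.

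Library totals were 66771605 to 75995168 counts for si-Control and 56332844 to 72839369 for si-*Fndc1*, and the 9 genes had between 2655 and 23693 counts each in a library. *Fndc1* itself (ENSMUSG00000071984) was at 27.8 ± 2.04 FPKM in si-Control and 20.9 ± 1.70 in si-*Fndc1* (SD, n = 5 each), a log2 fold change of −0.40 (SE 0.07, edgeR adjusted p = 0.000934) without overlap between the groups (−0.22 and adjusted p = 0.0104 once corrected for GC content and length, as described below), so the targeted mRNA was reduced but present in every si-*Fndc1* library. That correction, called the GC correction below, removed the trends with GC content and with length together. FPKM is a count divided by transcript length and library size, and fold changes were taken from a fit over all tested genes as si-*Fndc1* over si-Control. Summed myogenic markers stood at 7499 to 8484 CPM (counts scaled to the library total) with the control siRNA and at 7045 to 8171 with si-*Fndc1*. Summed fibroblast markers had ranges of 572 to 625 and 522 to 573, respectively. Single markers moved in both directions. At an edgeR adjusted p under 0.05, 3 of 9 myogenic markers were higher and 1 was lower. Of the 3 fibroblast markers tested, 1 was higher and 1 lower. Of all tested genes 17.3% were higher and 17.2% lower. Of the adipocyte markers, 4 of 5 were at 0 in all libraries, as were 3 of 5 blood and endothelial markers. Transcripts of hepatocytes, which the line should lack, summed to 0 to 13.1 CPM in si-Control and, with si-*Fndc1*, to 92.5 to 335, with all 13 markers in the table higher in every si-*Fndc1* library and each of the 13 at 0 in at least one si-Control library. The 3 with the highest counts in si-*Fndc1*, *Alb*, *Apoa1* and *Ahsg*, which encode secreted liver proteins, had log2 fold changes of 5.40, 6.27 and 6.29. The part of these transcripts in the results below was not tested.

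For *Akt1*, *Mtor* and *Rictor* the 250 bases before a transcription start are shown. They were chosen since *Akt1* and *Mtor* fell beyond the spread between libraries, though not with the GC correction, whereas *Rictor* did not. The sequences are RefSeq's on GRCm38.p6, read 5′ to 3′ on the strand of the gene. Capitals mark letters of a GC box (GGGCGG, the core of an Sp1 motif) or of a FOXO motif (GTAAACA), on either strand. The windows lie at chr12:112674885-112675134 (minus strand, the farther upstream of the entries for *Akt1*), chr4:148448332-148448581 (plus strand) and chr15:6708131-6708380 (plus strand).
Akt1: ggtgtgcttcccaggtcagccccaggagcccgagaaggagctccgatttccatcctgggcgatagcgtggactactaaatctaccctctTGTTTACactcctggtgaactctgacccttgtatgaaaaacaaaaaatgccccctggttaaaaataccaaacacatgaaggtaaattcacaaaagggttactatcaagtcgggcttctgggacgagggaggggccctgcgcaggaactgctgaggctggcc
Mtor: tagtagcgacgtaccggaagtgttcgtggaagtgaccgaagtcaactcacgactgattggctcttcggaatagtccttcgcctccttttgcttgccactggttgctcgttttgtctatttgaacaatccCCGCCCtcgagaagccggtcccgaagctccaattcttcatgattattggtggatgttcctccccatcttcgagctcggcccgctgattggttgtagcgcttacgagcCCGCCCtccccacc
Rictor: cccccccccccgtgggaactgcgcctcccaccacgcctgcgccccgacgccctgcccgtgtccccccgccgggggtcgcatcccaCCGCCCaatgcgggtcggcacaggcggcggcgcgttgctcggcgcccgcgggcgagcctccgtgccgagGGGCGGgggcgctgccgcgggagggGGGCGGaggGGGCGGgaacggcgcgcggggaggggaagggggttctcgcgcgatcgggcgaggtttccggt
All 9 genes matched entries of the RefSeq table, 14 windows in all, whose GC content ran from 37.6% to 81.2% against a median of 52.4% over all 32851 windows. A GC box stood in 6 of the 14 windows, one each of *Pik3ca*, *Pik3r1*, *Akt1*, *Akt2*, *Mtor* and *Rictor*, and in 32.7% of all windows. For *Akt1* it was the window not shown, with 78.4% GC and 4 GC boxes. FOXO factors are transcription factors held inactive by AKT, and their motif stood in the *Akt1* window above alone among the 14, against 3.17% of all windows. The E-box CACGTG stood in none of the 14 and in 6.02% of all windows. No motif here is contained in another, and a match describes letters, not binding.

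Among these genes *Akt1* was the most abundant per length and *Rictor* and *Tsc1* the least. In si-Control the order by mean FPKM was *Akt1*, *Akt2*, *Rptor*, *Mtor*, *Pik3r1*, *Pik3ca*, *Tsc2*, *Tsc1* and *Rictor*. The ranges of neighbours over libraries did not overlap from *Akt1* down to *Mtor*, nor between *Tsc2* and *Tsc1*. They overlapped from *Mtor* to *Tsc2* and between *Tsc1* and *Rictor*, so the order within those runs is not set by these data. With si-*Fndc1*, 3 of the 9 genes fell at an edgeR adjusted p under 0.05 (*Akt1*, *Mtor* and *Rptor*), none rose, and 6 did not pass. In the same test 34.4% of all tested genes passed, 17.2% as lower and 17.3% as higher, so the share among the 9 genes was near the background. The median log2 fold change was −0.10 over the 9 genes and 0.00 over all tested genes, whose median absolute value was 0.17. In bulk RNA, fewer cells of a type and less RNA per cell cannot be told apart.

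**Figure D1:**
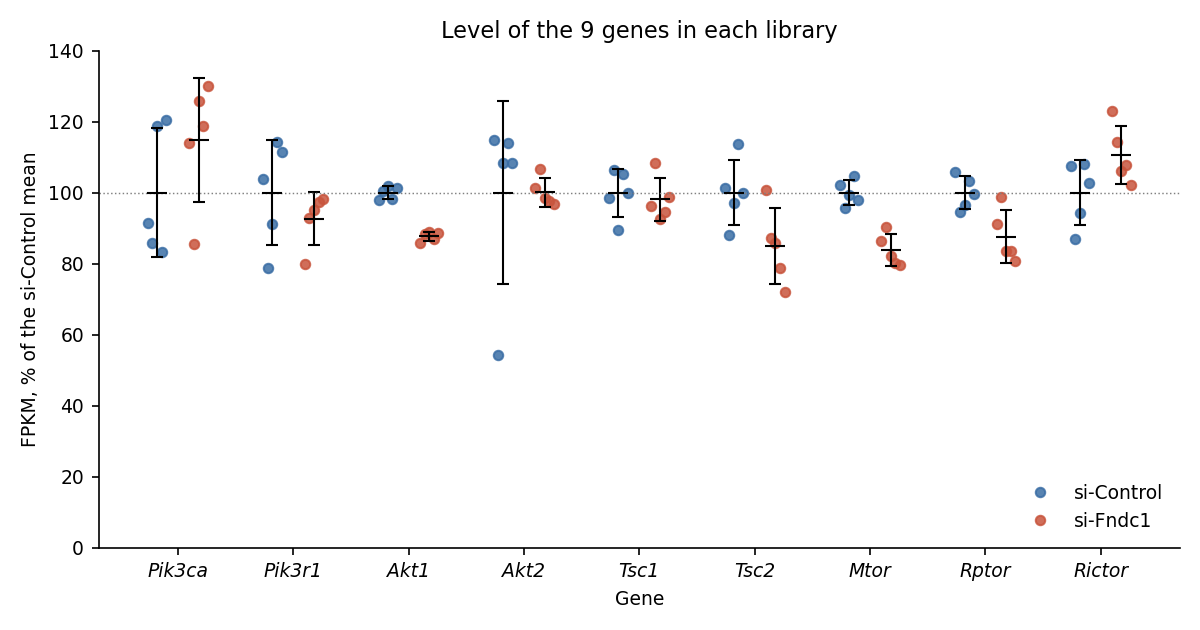
FPKM of the 9 genes in each library as a percentage of the gene's si-Control mean (points, 5 libraries per group in replicate order; horizontal marks and bars, mean and SD). *Akt1* and *Mtor* lay lower in every si-*Fndc1* library than in any si-Control library, and *Akt2* had 1 si-Control library at 54.2% of the mean.

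*Pik3ca*, the catalytic subunit alpha (ENSMUSG00000027665, chr3:32451820-32522635), and *Pik3r1*, the regulatory subunit that stabilises and restrains it (ENSMUSG00000041417, chr13:101817071-101904725), did not pass the test. Coordinates are as the table lists them, and GRCm39 is the build in the submitters' processing notes. *Pik3ca* was at 7.03, 6.61, 9.13, 6.41 and 9.27 FPKM in si-Control and 8.77, 6.58, 9.67, 9.13 and 10.01 in si-*Fndc1*. These groups overlapped widely, and the 95% interval of the log2 fold change ran from −0.09 to 0.51 (adjusted p = 0.268). *Pik3r1* was at 7.91 ± 1.17 FPKM in si-Control and 7.33 ± 0.587 in si-*Fndc1* (SD, n = 5 each), with an interval of −0.32 to 0.12 (adjusted p = 0.467). Both were the noisier genes of the group besides *Akt2*, with coefficients of variation in si-Control of 18.2% and 14.8%, against 1.80% for *Akt1*.

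The catalytic subunits of class IA, a part of class I without *Pik3cg*, are those of *Pik3ca*, *Pik3cb* and *Pik3cd*. *Pik3ca* supplied 72.8% ± 3.77 of their summed FPKM in si-Control and 77.5% ± 4.14 in si-*Fndc1* (SD, n = 5 each). *Pik3cb*, the other broadly expressed catalytic subunit, supplied nearly all the rest, 26.5% and 22.2%, and its log2 fold change was −0.14 (adjusted p = 0.229). The leukocyte-enriched *Pik3cd* lay under the minimum for testing, at 0.0660 and 0.0414 FPKM. Among the regulatory subunits, *Pik3r2* held the largest share (60.5% and 57.9%), ahead of *Pik3r1* (20.0% and 20.5%) and *Pik3r3* (19.5% and 21.6%). *Pik3r2* fell from 23.8 ± 0.877 to 20.7 ± 0.371 FPKM without overlap between groups (log2 fold change −0.20, adjusted p = 0.000772), and was at 0.08 (adjusted p = 0.118) after the GC correction. *Pik3r3* was level at 7.69 and 7.71 FPKM (adjusted p = 0.880).

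*Akt1*, the AKT kinase best known for cell growth and survival (ENSMUSG00000001729, chr12:112620255-112641318, minus strand), fell with the knockdown. It was at 68.3, 70.1, 71.2, 68.7 and 70.8 FPKM in si-Control and at 59.9, 61.6, 62.1, 60.7 and 61.9 in si-*Fndc1*. The highest si-*Fndc1* value was under the lowest si-Control value, a pattern shown by 13% of all tested genes, and the libraries of each group lay close together. The mean was 0.877 times that of si-Control (two-sided exact permutation p = 0.00794, the smallest that 5 against 5 allows), and the log2 fold change was −0.18 (SE 0.03, adjusted p = 0.000386). With the trend of GC content and length removed, it was 0.05 (95% interval −0.00 to 0.11, adjusted p = 0.149).

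*Akt2*, the AKT kinase tied to insulin-stimulated glucose uptake in muscle (ENSMUSG00000004056, chr7:27290977-27340251), turned on 1 control library. It was at 29.0, 13.7, 27.4, 28.8 and 27.4 FPKM in si-Control and at 25.6, 26.9, 24.9, 24.6 and 24.4 in si-*Fndc1*. The second si-Control library stood at 48.6% of the mean of the other si-Control libraries, and the means of both groups were 25.3 FPKM (log2 fold change 0.01, SE 0.17, adjusted p = 0.972). Without that library si-Control was at 28.15 ± 0.868 FPKM (SD, n = 4), above all si-*Fndc1* libraries, with a log2 fold change of −0.15 (edgeR adjusted p = 0.0125; two-sided exact permutation p = 0.0159), in a comparison where 34.1% of all tested genes passed, 17% as lower. As many as 263 tested genes were at or below the same percentage in that library, and 221 to 264 were so in each of the 5 si-Control libraries. With the GC correction, and all libraries, the log2 fold change of *Akt2* was 0.20 (adjusted p = 0.413).

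*Mtor* (ENSMUSG00000028991, chr4:148533068-148642140), the kinase of both mTOR complexes, had the lowest fold change of the 9 genes. In si-Control it was at 8.57, 8.03, 8.34, 8.78 and 8.22 FPKM and in si-*Fndc1* at 7.25, 7.57, 6.90, 6.74 and 6.68. The groups did not overlap, and the highest si-*Fndc1* library lay below the lowest si-Control library. Its log2 fold change was −0.25 (SE 0.04, adjusted p = 0.00122; two-sided exact permutation p = 0.00794), and it kept its call without any single library (−0.28 to −0.23). With the GC correction it was −0.04 (adjusted p = 0.337).

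*Rptor*, which presents substrates to mTORC1 (ENSMUSG00000025583, chr11:119493731-119790233), was at 12.3, 10.98, 11.2, 12.0 and 11.6 FPKM in si-Control and 10.6, 11.5, 9.69, 9.69 and 9.36 in si-*Fndc1*. In si-*Fndc1*, 4 of 5 libraries lay below all si-Control libraries, and the second lay within their range. The log2 fold change was −0.18 (SE 0.06, adjusted p = 0.0307; two-sided exact permutation p = 0.0238). This call was lost, at adjusted p from 0.0551 to 0.0715, without si-Control library 1, 4 or 5 or si-*Fndc1* library 3, 4 or 5. After the GC correction *Rptor* turned to 0.13 (SE 0.04, adjusted p = 0.0297), the only one of the 9 genes called in that fit, where 22.7% of 11185 genes passed, 11.3% as higher and 11.4% as lower.

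*Rictor*, the scaffold of mTORC2 (ENSMUSG00000050310, chr15:6737860-6810115), did not fall with the other mTOR genes. It was at 3.47, 2.81, 3.04, 3.49 and 3.31 FPKM in si-Control and at 3.97, 3.69, 3.42, 3.48 and 3.30 in si-*Fndc1*. The groups overlapped, with 2 si-*Fndc1* libraries above all si-Control libraries. Its log2 fold change was 0.15 (95% interval 0.00 to 0.31, adjusted p = 0.113). Unlike those of *Akt1*, *Mtor* and *Rptor*, it was nearly the same (0.16, adjusted p = 0.0555) after the GC correction, which removed the trend with length too.

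*Tsc1* and *Tsc2* encode the scaffold and the GTPase-activating subunit of the complex that turns off RHEB. *Tsc1* (ENSMUSG00000026812, chr2:28531240-28581179) had a median of 3.62 FPKM (3.25 to 3.86) in si-Control and of 3.49 (3.36 to 3.93) in si-*Fndc1*, with a log2 fold change of −0.02 (95% interval −0.15 to 0.11, adjusted p = 0.827). *Tsc2* (ENSMUSG00000002496, chr17:24814790-24851603, minus strand) was at 7.68, 6.69, 7.37, 8.63 and 7.59 FPKM in si-Control and 7.65, 6.62, 6.52, 5.98 and 5.47 in si-*Fndc1*. Apart from the first si-*Fndc1* library, all si-*Fndc1* values lay below the si-Control range. The log2 fold change of *Tsc2* was −0.23 (SE 0.09) and missed the threshold with edgeR (adjusted p = 0.0719). DESeq2 placed it under the threshold (adjusted p = 0.0413), in a test that called 37.1% of 13521 genes, 18.6% as lower, and so did edgeR without si-Control library 2 (−0.27, adjusted p = 0.0405) or without si-*Fndc1* library 1 (−0.29, adjusted p = 0.0196). With the GC correction it was −0.01 (adjusted p = 0.912). The 3′ end of *Tsc2* overlaps that of *Pkd1* on the opposite strand by 693 bases, and *Pkd1* had 24460 to 42151 counts in a library. Whether the counting used strand is not stated, so reads of the shared bases cannot be assigned.

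**Figure D2:**
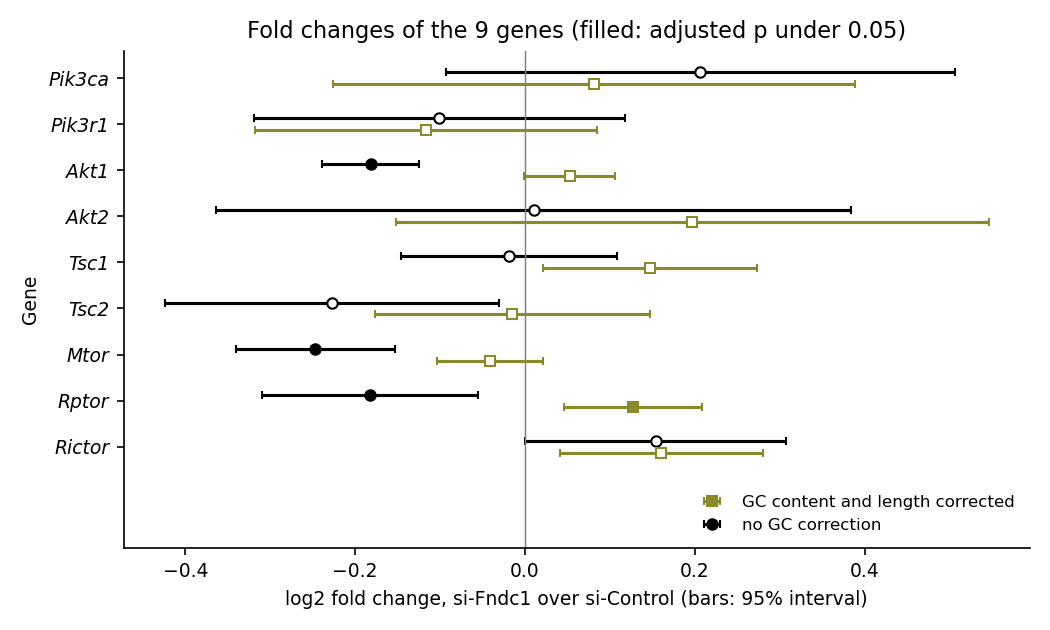
Log2 fold changes of the 9 genes, si-*Fndc1* over si-Control, with 95% intervals, from the edgeR fit without (circles) and with (squares) correction for GC content and length; filled symbols have an adjusted p under 0.05. *Akt1*, *Mtor* and *Rptor* lay below 0 without the correction, and with it *Akt1* was at 0.05, *Mtor* at −0.04 and *Rptor* at 0.13.

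The fold changes of the 9 genes were ordered in part by the GC content of their transcripts. *Pik3ca* and *Rictor*, at 41.2% and 42.5% GC, had the highest fold changes, and *Mtor*, *Tsc2*, *Rptor* and *Akt1*, at 54.2% to 59.7%, the lowest. *Akt2* (55.2%, 0.01) and *Pik3r1* (45.2%, −0.10) stood apart from this order. The same held over all genes with a known GC content. When those genes were divided equally by GC content, the median log2 fold change was 0.13 in the lowest part (31.9% to 47.3%), −0.02 in the middle part and −0.15 in the highest part (53.6% to 74.2%). When the trend with GC content and length was fitted in every library and removed, these medians were −0.00, −0.01 and −0.00, and 2537 of 11185 genes passed in place of 4244 (37.9%). GC content and length were removed together, so the part of each was not tested. A trend that follows the groups cannot be told apart from the siRNA in this design.

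**Figure D3:**
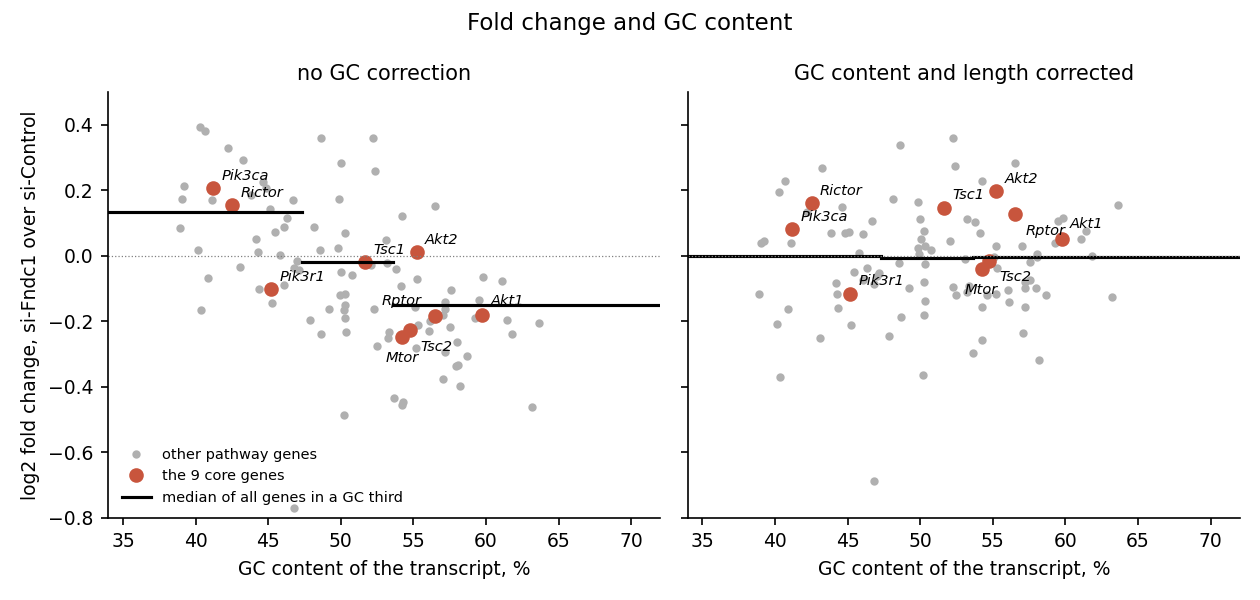
Log2 fold change (si-*Fndc1* over si-Control) against the GC content of the transcript for the 9 genes (large points) and the genes of the pathway lists (small points), without (left) and with (right) correction for GC content and length. Lines give the median of all genes in the low, middle and high part of the GC range, 0.13, −0.02 and −0.15 on the left and about 0 on the right.

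A ratio between genes of 1 library does not depend on the scaling of that library, and 6 such ratios were compared, with p-values adjusted over the 6. The ratio of the mTORC2 subunit to the shared kinase was higher with si-*Fndc1*, although *Rictor* alone did not pass (edgeR adjusted p = 0.113). The transcripts of *Rictor* and *Mtor* differ in GC content (42.5% and 54.2%). How often other pairs of genes separate in this way was not examined. *Rictor* to *Mtor* was 0.406, 0.350, 0.365, 0.398 and 0.403 in si-Control and 0.547, 0.487, 0.496, 0.516 and 0.494 in si-*Fndc1*, without overlap. The mean difference was 0.40 on the log2 scale (two-sided exact permutation p = 0.00794, adjusted 0.0238), and 0.20 after the GC correction, with the same adjusted p. *Rptor* to *Rictor* was 3.53, 3.91, 3.67, 3.43 and 3.49 in si-Control and 2.67, 3.11, 2.83, 2.79 and 2.84 in si-*Fndc1*, again without overlap (−0.34, adjusted exact permutation p = 0.0238). This difference was −0.03 after the GC correction (adjusted p = 0.611 by the exact permutation test).

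*Rptor* to *Mtor*, the subunits of mTORC1, had ratios that overlapped between the groups, 1.38 in si-Control and 1.44 in si-*Fndc1* as geometric means (0.06 on the log2 scale, adjusted exact permutation p = 0.0952). With the GC correction the difference was 0.17, and the groups separated (adjusted exact permutation p = 0.0238). *Tsc1* to *Tsc2* was 0.478 and 0.555 (0.21, adjusted exact permutation p = 0.155). *Akt1* to *Akt2* was 2.87 and 2.42 (−0.24, adjusted exact permutation p = 0.246), and *Pik3r1* to *Pik3ca* was 1.03 and 0.837 (−0.30, adjusted exact permutation p = 0.162). *Mtor* and *Rptor* were also the closest pair among the 9 genes over the 10 libraries, with a mean absolute difference of 0.0386 between their centred log2 CPM. Many other genes lay closer to each. By closeness, *Rptor* ranked 103 among the genes around *Mtor*, and *Mtor* ranked 32 among those around *Rptor*. Of all tested genes, the one closest to *Mtor* was *Nes* (0.0157), to *Rptor* *Bptf* (0.0249), to *Akt1* *Fkbp9* (0.0195), to *Rictor* *Rbm28* (0.0335), to *Tsc1* *Chd2* (0.0310) and to *Tsc2* *Plekhg3* (0.0428). For *Akt2* it was *Pcdh19* (0.0650) and for *Pik3ca* *Psmg3* (0.103).

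**Figure D4:**
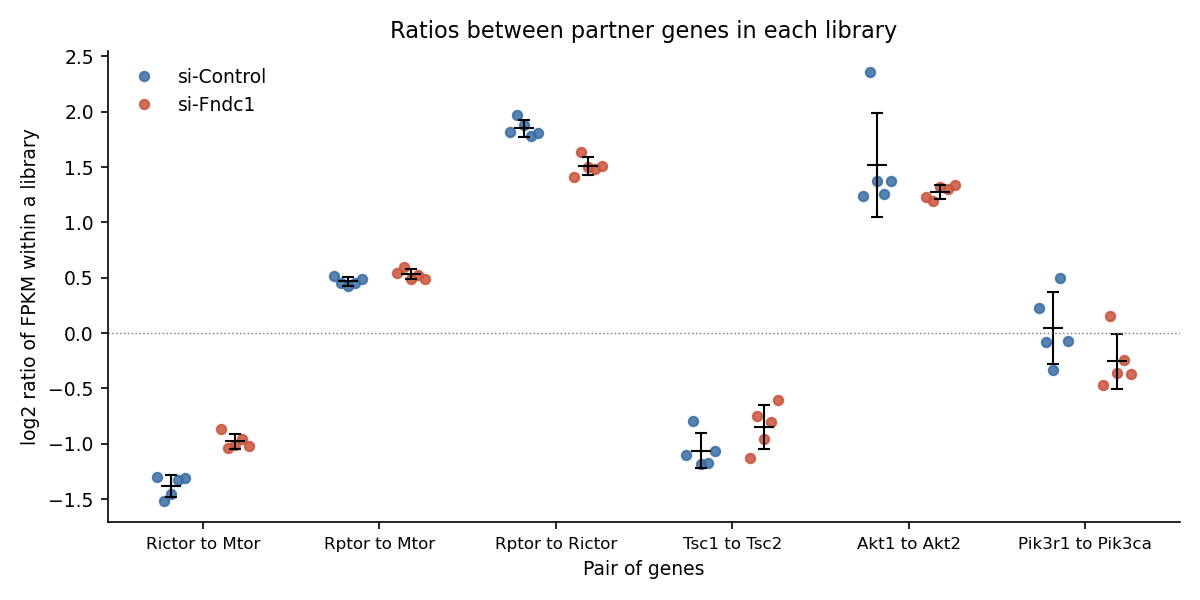
Log2 ratio of FPKM between partner genes within each library (points, 5 per group; marks and bars, mean and SD), without GC correction. *Rictor* to *Mtor* lay higher and *Rptor* to *Rictor* lower in every si-*Fndc1* library than in any si-Control library; after the GC correction the differences were 0.20 and −0.03 on the log2 scale.

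Of 103 other genes of the pathway in 9 lists, 102 were in the table and 92 were tested. Of these, 29 fell, 12 rose and 51 did not pass, 44.6% called against 34.4% of all tested genes. All 92 had a known GC content, and 37.9% of the genes with one were called without correction. The median log2 fold change of the 92 genes was −0.09. With the GC correction 10 fell and 6 rose, 17.4% called against 22.7% of all genes in that fit, and the median was −0.02. Upstream, 6 of 9 receptors and adaptors fell and 1 rose (77.8% called), and with the GC correction 2 fell and 1 rose. *Igf1r*, the receptor through which IGF1 acts on muscle, fell from 4.802 ± 0.317 to 3.50 ± 0.224 FPKM (SD, n = 5 each; −0.45, adjusted p = 0.000197; −0.16 and adjusted p = 0.0138 with the GC correction). The fibronectin receptor subunit *Itga5* fell by 0.22 on the log2 scale (adjusted p = 0.000560) and was at −0.02 with the correction (adjusted p = 0.650). The others were named after their values were seen. *Insr* (−0.77), *Irs1* (−0.23), *Irs2* (−0.20) and *Src* (−0.19) also fell and *Itgb1* (0.21) rose. With the correction *Irs1* alone of these 5 passed (−0.14, adjusted p = 0.0158), *Irs2* was at 0.15 (adjusted p = 0.0716), and the focal adhesion kinase *Ptk2* passed as higher (0.17, adjusted p = 0.00899).

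Among the class II and III PI3K genes, 3 of 4 tested fell and 1 rose, against 17.2% lower and 17.3% higher among all tested genes, and with the GC correction 1 fell and none rose. *Pik3c3*, the lipid kinase of autophagy and endosomes, fell from 6.83 ± 0.292 to 5.94 ± 0.212 FPKM (−0.20, adjusted p = 0.00726; with the GC correction −0.24, adjusted p = 0.00241). Its regulatory partner *Pik3r4* fell from 3.16 to 2.60 FPKM (−0.28, adjusted p = 0.00920; −0.12 and adjusted p = 0.206 with the correction). *Pik3c2b* (−0.46) fell and *Pik3c2a* (0.17) rose, both named after their values were seen, and neither passed with the correction (adjusted p = 0.194 and 0.567). Of the phosphatases that oppose PI3K and AKT, 1 of 10 fell (*Inpp4a*, named after its value was seen, which did not pass with the correction, adjusted p = 0.0864) and 2 rose (30% called in all). *Ppp2ca*, the catalytic subunit of PP2A, rose from 37.9 ± 1.02 to 44.05 ± 0.981 FPKM (0.23, adjusted p = 0.000222; 0.15 and 0.00746 with the correction), and the lipid phosphatase *Inpp4b* rose by 0.29 on the log2 scale (adjusted p = 0.00654; 0.27 and 0.00679 with the correction).

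Around AKT, 2 of 7 tested genes fell and 1 rose, 42.9% called against the 34.4% of all tested genes. *Pdpk1*, which phosphorylates AKT at the membrane, was level at 8.89 and 8.86 FPKM (95% interval of the log2 fold change −0.10 to 0.10, adjusted p = 0.987). *Trib1*, a pseudokinase, fell by 0.28 on the log2 scale (adjusted p = 0.0338), as did its relative *Trib3*, named after its value was seen, and the adaptor *Appl1* rose by 0.17 (adjusted p = 0.00391). None of these 3 passed with the GC correction, and *Trib1* lost its call (adjusted p of 0.0654 to 0.0795) without si-Control library 3 or 5 or si-*Fndc1* library 1, 3 or 5. The other tested subunits of the mTOR complexes did not pass the test. *Mlst8*, shared by both complexes, had a log2 fold change of 0.12 (adjusted p = 0.382), the mTORC2 subunit *Mapkap1* of 0.02 (adjusted p = 0.950) and the inhibitor *Deptor* of −0.10 (adjusted p = 0.285). Of that list of 7 tested genes, *Telo2* alone fell, a chaperone cofactor for the assembly of mTOR (−0.26, adjusted p = 0.0194; 0.01 with the correction), and its adjusted p was 0.0506 without si-Control library 3 and 0.0502 without si-*Fndc1* library 3. The TSC subunit *Tbc1d7* (0.17, adjusted p = 0.129) and *Rheb* (−0.04, adjusted p = 0.502) did not pass.

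Of 26 amino acid and energy inputs to mTORC1, 7 fell and 4 rose (42.3% called), or 2 and 2 with the GC correction. *Seh1l*, of the GATOR2 complex that promotes mTORC1, rose from 12.99 ± 0.489 to 16.2 ± 0.830 FPKM (0.33, adjusted p = 0.000195; 0.13 and 0.0285 with the correction). Of 23 effectors, 8 fell and 3 rose (47.8% called), or 4 and 1 with the GC correction. *Eef2*, the elongation factor that moves the ribosome, fell from 1170 ± 27.9 to 895.8 ± 22.3 FPKM (−0.38, adjusted p = 1.815e-05; −0.23 and 7.116e-05 with the correction). *Larp1*, which binds the mRNAs of ribosomal proteins downstream of mTORC1, fell from 19.5 ± 1.11 to 14.4 ± 0.363 FPKM (−0.43, adjusted p = 3.725e-05; −0.30 and 0.000128 with the correction).

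**Figure D5:**
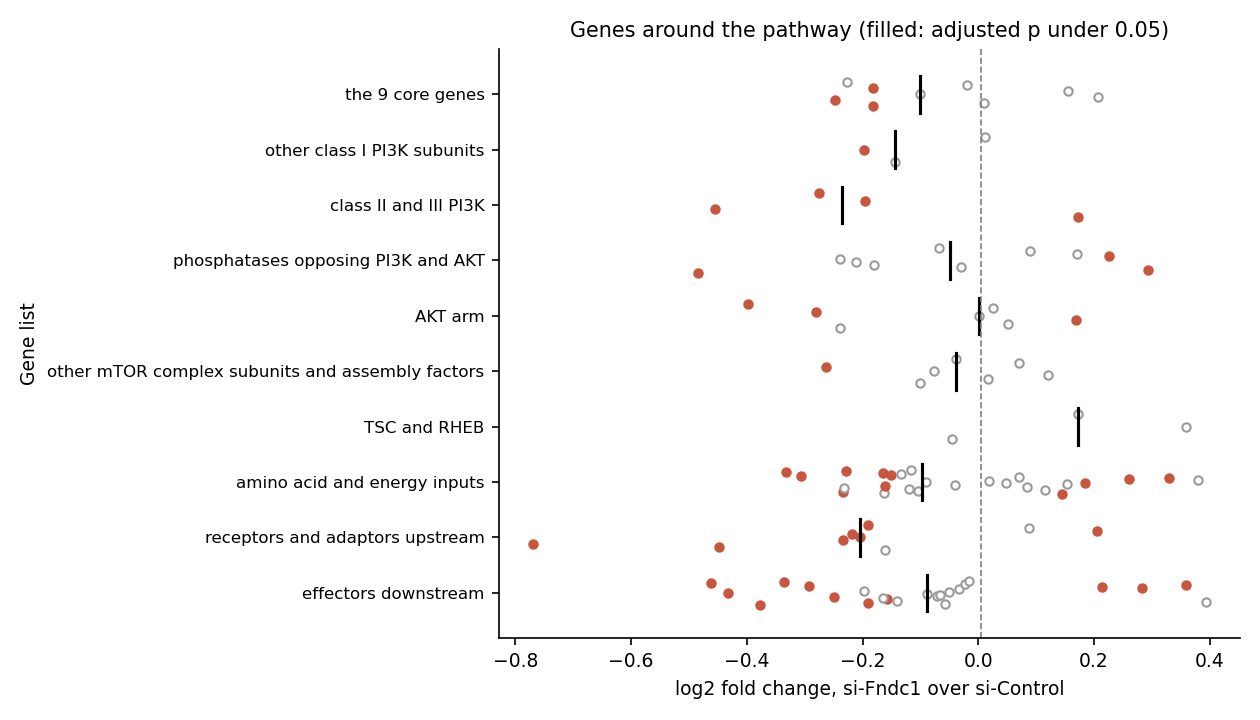
Log2 fold changes (si-*Fndc1* over si-Control, no GC correction) of the tested genes of each list, 1 point per gene, with the median of the list (vertical mark); filled points have an edgeR adjusted p under 0.05 and the dashed line is the median of all tested genes. The 9 core genes lay between −0.25 and 0.21, and over the 9 other lists 29 genes fell and 12 rose, or 10 and 6 with the GC correction.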

How the data were processed

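RNA-seq was analysed from 5 si-Control and 5 si-*Fndc1* libraries of C2C12 cells, grouped by their labels; the labels do not say whether libraries came from separate cultures, so p-values measure the spread between libraries, which may be technical. The authors deposited raw read counts per gene and, beside them, FPKM values (counts per transcript length and library size), listed as 0.0001 where no read was counted. Trimming with cutadapt 1.9 and the build GRCm39 come from the submitters' processing notes. The paper's methods name TopHat, mm10 and htseq-count and fewer libraries, and the series description STAR and mm9, and the transfection reagent and serum also differ between sources; which applies is unresolved. Strand use in counting is not given in the sources used here. The authors' table also lists GO and KEGG annotation, not used here, and 0 columns lacked a sample.

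Counts were tested with edgeR 4.0.16 (TMM, quasi-likelihood, group only) in R 4.3.3, for the 13548 genes whose FPKM averaged 0.5 or more, with Benjamini-Hochberg adjustment over all of them; the method was tested on simulated data. FPKM and within-library log2 ratios were compared by two-sided exact permutation tests (numpy 2.4.6 in Python 3.11.15). Alternatives were RLE factors, DESeq2 1.42.0, limma 3.58.1 on log2(FPKM + 1), no filter, a minimum of 5 FPKM, CPM for levels, a pseudocount of 1 for ratios, a replicate block, and each library left out. A further one removed the trend of log counts (0.5 added) with GC content (NCBIM37 transcripts, by gene identifier) and length (implied by count and FPKM), fitted in every library by Huber regression on splines of 5 degrees of freedom, for the 11185 genes (82.6%) with both; the fit without correction on those genes was added after seeing the data. In all 20 pairs of libraries within a group the counts differed beyond sampling noise.

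The 9 genes and all lists were chosen with earlier results of these data known. Named genes were the 9 genes, *Fndc1*, paralogs and partners, up to 2 called genes with the smallest p per list, 3 hepatocyte markers, and the most similar gene to each of the 9, some of which are not reported here; others are marked as named after their values were seen.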

Additional observations from a re-analysis of the deposited data

Results flagged for a closer look

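In groups of 5 libraries, the gap between an extreme library and its nearest neighbour, divided by the range of the group, was set against Dixon's critical value of 0.71 in 32 groups. For *Akt2* in si-Control the lowest library, replicate 2 at 13.7 FPKM against 27.4 to 29.0 in the others, gave 0.895. The log2 ratio of *Akt1* to *Akt2* in si-Control, whose highest value of 2.36 came from the same library, gave 0.876. Both values rest on the same low *Akt2* count (7738 against 14508 to 17493), while *Akt1* had 22768 counts there. Chance passes about 1 in 20 groups, and 7.27% of tested genes and groups passed.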

How the results depend on the processing

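The calls of *Akt1* and *Mtor* remained with RLE factors, DESeq2, limma on log2(FPKM + 1), no filter, the minimum of 5 FPKM, the replicate block and each library left out. *Rptor* missed the threshold with no filter (−0.18, adjusted p = 0.0592), as did *Trib1* (0.0661), and *Tsc2* passed with DESeq2 (−0.23). The minimum of 5 FPKM left 17 other pathway genes lower, from fewer genes tested, and *Rictor* and *Tsc1* lay under it. With the GC and length correction 2537 genes were called, with 0 of the 9 core genes lower and 1 higher, and 10 other pathway genes lower and 6 higher; *Akt1* was at 0.0527, *Mtor* −0.0412, *Rptor* 0.127, *Tsc1* 0.147, *Pik3r2* 0.0763, *Pik3r3* −0.116, *Mapkap1* −0.0218 and *Telo2* 0.0054, *Rptor* to *Rictor* −0.0342 and *Rptor* to *Mtor* 0.17. The trend differed between groups, and its cause was not tested.

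Replicate numbers did not pair the libraries: deviations of same-numbered libraries correlated at −0.0545 to 0.0572, and 1 of 5 si-Control libraries matched its own number best. With the replicate block *Rptor* was at −0.19 (adjusted p = 0.0632) and *Pdpk1* at −0.0003, *Trib1* (adjusted p = 0.088) and *Telo2* (0.0768) lost their calls, and *Rictor* to *Mtor* (0.40) and *Rptor* to *Rictor* (−0.34) had an adjusted p of 0.188 by the exact sign-flip test, since 5 pairs cannot reach the threshold. The block with the GC correction called 1645 genes, 0 and 1 of the 9 core genes and 9 and 4 other pathway genes (lower and higher), with *Akt1* 0.0525, *Mtor* −0.0414, *Rptor* 0.127, *Tsc1* 0.150, *Pik3r2* 0.0763, *Pik3r3* −0.118, *Mapkap1* −0.0017 and *Telo2* 0.0075, and ended the calls that *Seh1l* (0.0654) and *Igf1r* (0.0609) had with the GC correction alone. With limma *Pdpk1* was at −0.0068.

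Leaving out 1 library at a time gave 4000 to 4627 genes called, 2 to 5 of the 9 core genes lower (5 without si-Control library 2) and 0 higher, and 21 to 29 other pathway genes lower and 11 to 13 higher. The log2 fold change ranged over −0.19 to −0.17 for *Akt1*, −0.15 to 0.0656 for *Akt2* (−0.0145 without si-*Fndc1* library 2), −0.28 to −0.23 for *Mtor*, −0.23 to −0.15 for *Rptor*, −0.29 to −0.17 for *Tsc2*, −0.0581 to 0.0034 for *Tsc1*, −0.0169 to 0.0389 for *Pik3r3*, −0.0252 to 0.0360 for *Pdpk1* and −0.0802 to 0.11 for *Mapkap1*. *Akt2* by FPKM ranged over −0.15 to 0.0566.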
